A study of Mus musculus with 14 samples.

Results

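The proteasome subunit genes were taken as every gene in the deposited count tables whose symbol begins with Psma, Psmb, Psmc or Psmd followed by a digit, without the entries marked as pseudogenes. The rule found 40 of the 18507 genes in the tables. Of these 40 genes, 38 were listed at both stages, and Psmb8 and Psmb9 were listed in the GV table alone. Psmc3ip, a meiotic recombination factor, has a symbol that meets the rule but is no subunit, so it was counted apart. This left 39 genes, of which 19 encode subunits of the core particle (Psma and Psmb) and 20 encode subunits or chaperones of the regulatory particle (Psmc and Psmd).

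The series compared oocytes of Mff fl/fl mice (WT) with oocytes of mice that carried Mff fl/fl together with Gdf9-Cre (CKO). Mff encodes an outer-membrane receptor of the mitochondrial fission machinery, and the Gdf9 promoter drives Cre in oocytes, so both genotypes carried the floxed allele and CKO libraries carried Cre as well. Oocytes at the germinal vesicle (GV) stage, arrested in meiotic prophase, were sequenced in 4 libraries of each genotype, and oocytes collected after ovulation in 3 libraries of each. No source used here gives the age of the mice or how many oocytes and animals went into a library. The p-values therefore reflect library-to-library spread, which may be technical.

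The proteasome degrades proteins tagged with ubiquitin. Its core particle is a barrel of α and β rings, with the proteolytic sites on the β subunits Psmb5, Psmb6 and Psmb7 facing the inside. The regulatory particle caps the barrel: its base holds a ring of Psmc ATPases that unfold the substrate, and its lid holds Psmd14, which removes the ubiquitin chain. In oocytes, degradation of cyclin B and securin by the proteasome is needed for the exit from the first meiotic division. Transcription is largely silent in the fully grown oocyte, and many stored maternal mRNAs lose their poly(A) tail and are degraded while the oocyte matures.

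Libraries held between 26575593 and 28847424 estimated counts. Mff itself lay between 304 and 945 CPM (counts scaled to the size of the library) in WT and between 30.1 and 54.4 CPM in CKO libraries, with no overlap at either stage. All 12 genes of a list of oocyte markers were found, and their summed level was 14639 to 30478 CPM in every library. This sum hides differences of single markers between the ovulated groups. Per library total, Zp1, Zp2, Zp3, Figla, Npm2, Bmp15 and Dazl were higher in ovulated CKO than WT without overlap. The ranges of Gdf9, Nobox, Ddx4, Oosp1 and Kit overlapped. Zp2 was at 101 to 163 CPM in WT and 609 to 1151 CPM in CKO, and Figla at 0.450 to 0.989 and 8.84 to 27.2 CPM. On scaled CPM, 15.8% of all genes were higher without overlap. Summed levels of 15 granulosa and cumulus markers, of which 13 were listed at the GV stage and 10 after ovulation, were 49.3 to 114 CPM, and those of 12 markers of immune cells, blood and stroma, of which 12 and 8 were listed, were 22.1 to 134 CPM. Single genes carried most of the higher sums: in WT ovulated libraries Cyp19a1 was at 71.0 to 91.6 CPM and Pecam1 at 78.0 to 130.4 CPM. The pan-leukocyte gene Ptprc was at most 0.0361 CPM in GV libraries. The first principal component of the GV libraries (43.8% of their variance) set WT 2, CKO 1 and CKO 2 off from the other 5. That of the ovulated libraries (50.3%) separated the genotypes, with WT at 38.9, 42.7 and 62.6 and CKO at -14.1, -85.4 and -44.7. CKO 2 and WT 3 were the outermost along it. In bulk material, fewer oocytes and less mRNA per oocyte cannot be told apart, and every level below is a share of the mRNA captured in a library.

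The ends of a few subunit mRNAs are shown because polyadenylation signals in this stretch bear on how mRNAs fare during meiotic maturation. The cytoplasmic polyadenylation element, searched here as TTTTAT or TTTTAAT on the sense strand of the last 100 bases, recruits the protein CPEB and is known to direct tail lengthening in maturing oocytes. Below, 30 bases around the match are given from the GENCODE transcripts (GRCm38), with the match in capitals. In Psmb3 the match overlaps an AATAAA hexamer, the signal of nuclear cleavage and polyadenylation.
Psma1 (chr7:114264659-114264688, minus strand): ctataccaatgtTTTTATatgaagaaaata
Psma5 (chr3:108279910-108279939, plus strand): gtgtgtgtgtttTTTTATgaagtctgtaca
Psmb3 (chr11:97713465-97713494, plus strand): ttttgtttttctTTTTAATaaaattgcctt
Psmb7, Psmc2 and Psmd3, which showed the deepest decrease of a core gene and of an ATPase and the single increase between stages in WT, held no such element in the last 100 bases. Their AATAAA hexamer is in capitals here.
Psmb7 (chr2:38588039-38588068, minus strand): ttaaaataaataAATAAAaagacaaaaaac
Psmc2 (chr5:21803754-21803783, plus strand): ccaccgcacaaaAATAAAagatttaaaaac
Psmd3 (chr11:98695949-98695978, plus strand): tgatttttaaacAATAAAaagttctccaga

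Levels were first set out at the GV stage in WT oocytes, as FPKM, the deposited measure per transcript length. Over the 14 constitutive core genes, the highest was Psma7, an α ring subunit, at 980 ± 102 FPKM (SD, n = 4), and the lowest was Psmb5, at 45.7 ± 11.7 FPKM. Psma2, another α subunit, stood next to the top at 967 ± 77.3 FPKM, which differs from Psma7 by less than their spread. The other catalytic subunits stood well above Psmb5, Psmb7 at 429 ± 91.2 FPKM and Psmb6 at 277 ± 65.2 FPKM. Over the 17 regulatory genes without the chaperones, the highest was Psmd4, the ubiquitin receptor of the base, at 286 ± 85.1 FPKM, and the lowest by far was the lid gene Psmd13, at 0.85 ± 0.25 FPKM. Psmd13 rested on 19 to 55 counts in a GV library, so its fold changes are imprecise.

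Tissue-restricted subunits were nearly absent. Psmb8 and Psmb9, the interferon-induced subunits of the immunoproteasome, had 0 to 2 counts in each GV library. Psmb10, their partner, had 4 to 13 counts in a GV library, 0 to 2 in an ovulated WT library, and 10, 36 and 2 in the ovulated CKO libraries 1, 2 and 3. Psma8, the α subunit of the testis proteasome, had 0 to 11 counts in a library of any group. Psmb11, the thymus subunit, had 21.7 to 55 counts in a GV library and 0 to 14 in an ovulated library. Psma8, Psmb8 and Psmb9 passed the filter on low counts in no comparison, and Psmb10 and Psmb11 did not pass it in the ovulated oocytes.

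The change from the GV to the ovulated oocyte was measured first within WT, over the 36 subunit genes that passed the filter. Of these, 27 fell and 1 rose (edgeR's quasi-likelihood test, Benjamini-Hochberg adjusted p under 0.05). Over all genes tested in WT, 36.2% fell and 30.3% rose. The median log2 fold change of the subunits was -2.19, beside -0.17 for all genes. Among the core genes 14 of 16 fell, and among the regulatory genes 13 of 20 fell and 1 rose. The 27 and the 14 include Psmb10 and Psmb11, which had few counts and did not pass the filter in ovulated oocytes alone. Both passed it here through the GV libraries, where they are higher, so their calls are no support. The plot of fold changes between stages shows every gene by its place in the particle.

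**Figure D1:**
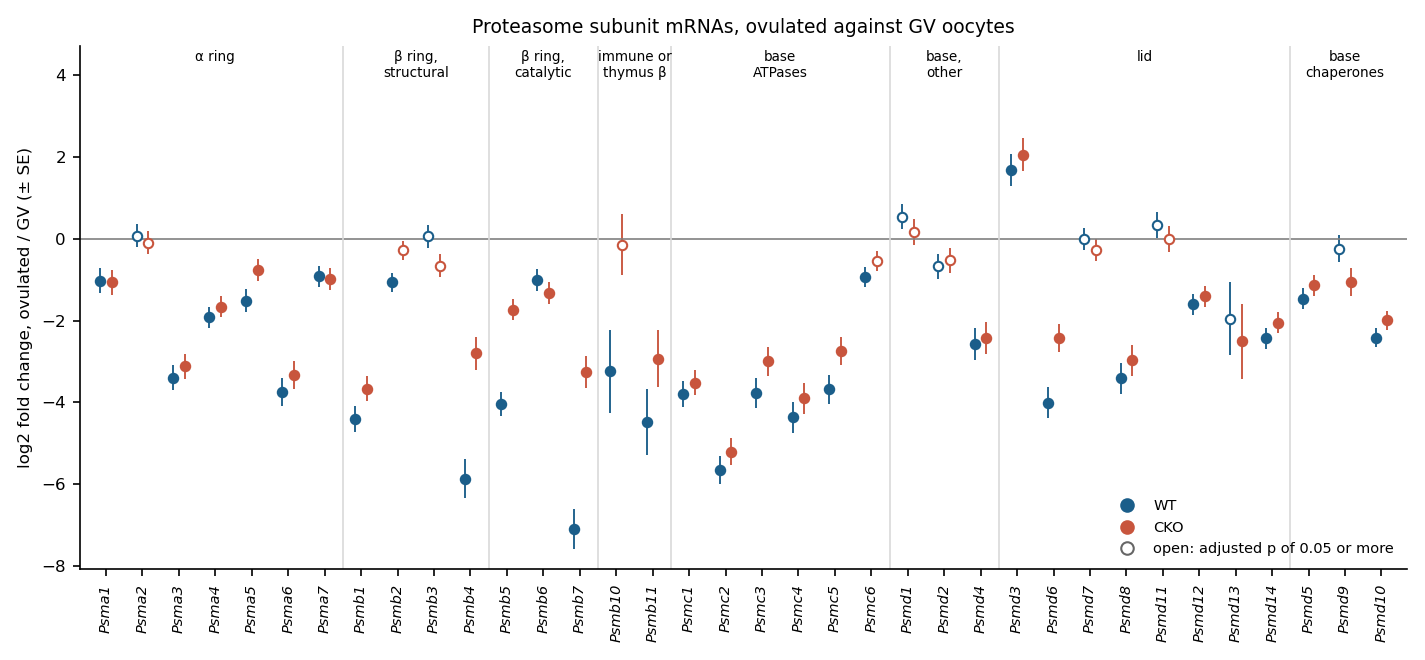
Log2 fold change from GV to ovulated oocytes (y axis) of each tested subunit gene, grouped by its place in the proteasome, in WT (blue) and CKO (red); bars are standard errors and filled points passed the adjusted p threshold of 0.05. In WT, 27 genes lie below 0 with filled points, from Psmb7 at the bottom, and Psmd3 alone lies above 0 with a filled point.

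All 3 catalytic β subunits fell in WT, by very different amounts. Psmb7, which carries the trypsin-like site, was 366, 327, 368 and 338 CPM in the WT GV libraries and 2.48, 3.00 and 2.24 CPM in the WT ovulated libraries. The lowest GV library was thus far above the highest ovulated one, and the fitted change was a 135-fold decrease (log2 -7.08 ± 0.48 SE, edgeR adjusted p = 1.00e-08). Psmb5, which carries the chymotrypsin-like site, was 31.4, 31.7, 39.2 and 33.5 CPM in the WT GV libraries and 1.96, 1.65 and 2.64 CPM in the WT ovulated libraries.
These groups did not overlap either, and Psmb5 fell 16.3-fold (log2 -4.03 ± 0.29, edgeR adjusted p = 1.56e-08). Psmb6, which carries the caspase-like site, was 259, 246, 270 and 255 CPM in the WT GV libraries and 103, 103 and 180 CPM in the WT ovulated libraries. Its decrease was the smallest of the catalytic subunits (log2 -1.002 ± 0.27, edgeR adjusted p = 0.00297).

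Among the structural β subunits, Psmb4 and Psmb1 stood with the deep decreases. Psmb4 was 173, 160, 175 and 190 CPM in the WT GV libraries and 2.58, 2.87 and 3.56 CPM in the WT ovulated libraries. The groups were separate, and the decrease was 58.1-fold (log2 -5.86 ± 0.47, edgeR adjusted p = 2.89e-08). Psmb1 fell 21.2-fold, from 317 ± 13.1 to 14.98 ± 1.13 CPM (SD). Psmb2 fell by less (log2 -1.07 ± 0.24, edgeR adjusted p = 0.000768), and Psmb3 gave a log2 fold change of 0.06 ± 0.28 (adjusted p = 0.857).

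Of the 7 α ring genes, which gate the entry to the barrel, 6 fell in WT. Psma6 (log2 -3.74) and Psma3 (-3.40) fell most, while Psma7 (-0.92) and Psma1 (-1.03) fell least. Psma2 was 908, 637, 845 and 917 CPM in the WT GV libraries and 750, 795 and 1066 CPM in the ovulated ones, ranges that overlap (log2 0.07 ± 0.28, edgeR adjusted p = 0.827). Counts of Psma3 and Psma4 were fractional, and annotated pseudogenes exist for Psma5, Psmb5, Psmb6 and Psmb7, so how reads were divided among such copies makes these genes less certain.

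All 6 ATPases of the base fell in WT. Psmc2 was 331, 236, 321 and 345 CPM in the WT GV libraries and 8.01, 4.55 and 5.95 CPM in the WT ovulated libraries. No ovulated library came near the GV range, and Psmc2 fell 49.9-fold (log2 -5.64 ± 0.34, edgeR adjusted p = 8.84e-09). Psmc4 fell 20.6-fold, and Psmc1 (log2 -3.79), Psmc3 (-3.77) and Psmc5 (-3.67) fell by similar amounts, within 1 SE of each other. Psmc6 fell by less (log2 -0.94 ± 0.25, adjusted p = 0.00289). The mRNAs of the ring thus stood at very different levels per length after ovulation: Psmc6 was at 61.6 ± 7.61 FPKM (SD, n = 3) and Psmc2 at 5.42 ± 1.82 FPKM in WT.

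The rest of the base and the lid were mixed. The lid gene Psmd3 was the gene that rose, from 30.6, 10.0, 18.8 and 32.5 CPM in the WT GV libraries to 86.8, 70.6 and 63.5 CPM in the WT ovulated ones. The groups did not overlap (log2 1.68 ± 0.39, edgeR adjusted p = 0.00111). Psmd14, the deubiquitinase of the lid, fell from 51.1, 61.6, 61.4 and 61.3 CPM to 11.2, 10.7 and 10.8 CPM, with no overlap (log2 -2.43 ± 0.26, adjusted p = 3.84e-07).
The lid genes Psmd6 (log2 -4.01), Psmd8 (-3.41) and Psmd12 (-1.61) fell too, as did the ubiquitin receptor Psmd4 (-2.57). Log2 fold changes were -0.01 for Psmd7, the partner of Psmd14 in the lid, 0.33 for the lid gene Psmd11, 0.54 for the base scaffold Psmd1 and -0.68 for the base scaffold Psmd2, none past the threshold. Psmd13, at -1.95 ± 0.89, did not pass it either (adjusted p = 0.0619). Of the base chaperones, which help to assemble the base and leave the finished particle, Psmd10 (log2 -2.42) and Psmd5 (-1.47) fell, and Psmd9 was at -0.25 ± 0.33. Psmb10 and Psmb11, at counts near 0 after ovulation in WT, were also called lower, and a fold for them depends on those few counts.

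In CKO oocytes the course was similar in count: 26 of 36 subunits fell and 1, Psmd3 again, rose (log2 2.05 ± 0.40, edgeR adjusted p = 0.000352). The 26 include Psmb11, whose call is no support for the reason given above for WT. They also include the lid gene Psmd13, which had 19 to 55 counts in a CKO GV library and 0 to 13 in a CKO ovulated one. Its call was lost under 3 alternatives. Over all genes tested in CKO, 31.2% fell and 23.2% rose. The median of the subunits was -1.70, beside -0.19 for all genes. In both genotypes 24 subunits fell, which is 88.9% of those that fell in WT and 92.3% of those that fell in CKO.
The deepest decreases in CKO were those of the ATPases Psmc2 (log2 -5.20), Psmc4 (-3.90) and Psmc1 (-3.52), of Psmb1 (-3.66), of the α subunit Psma6 (-3.33) and of Psmb7 (-3.25). For Psmb7, 278, 505, 442 and 326 CPM in the CKO GV libraries stood against 21.8, 75.6 and 24.5 CPM in the CKO ovulated libraries, a 9.54-fold decrease with no overlap. Psmc2 fell 36.7-fold, from 303 ± 80.2 to 8.25 ± 1.26 CPM.

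Transcript length moved with the change between stages across all genes. Of all genes shorter than 1437 bases, the first quartile, 58.7% fell in WT. Of the 36 tested subunits 28 were shorter than this, and 24 of these 28 fell. Spearman's rho between length and fold change was 0.43 over 11962 genes and 0.25 over the 36 subunits, given as a description, since genes of 1 library share its preparation and depth. When a smooth trend on length was removed from each library, 19 subunits fell and 8 rose in WT, and 17 fell and 6 rose in CKO, beside 27 and 1, and 26 and 1, without this step. Of the 11962 genes tested with this step, 3865 fell and 4335 rose in WT, and 3236 fell and 3599 rose in CKO. The median of all genes moved from -0.17 to 0.13 in WT. The genes whose decrease turned into a positive value were Psma1, Psma7, Psmb2, Psmb6 and Psmc6 in WT, while Psmb1, Psmb4, Psmb5, Psmb7 and 5 of the 6 ATPases remained called lower in both genotypes. Their values in WT were smaller with this step, at -5.38 for Psmb7, -4.34 for Psmc2, -4.19 for Psmb4, -2.78 for Psmb1 and -2.32 for Psmb5. The part of length in these changes was not tested further.

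**Figure D2:**
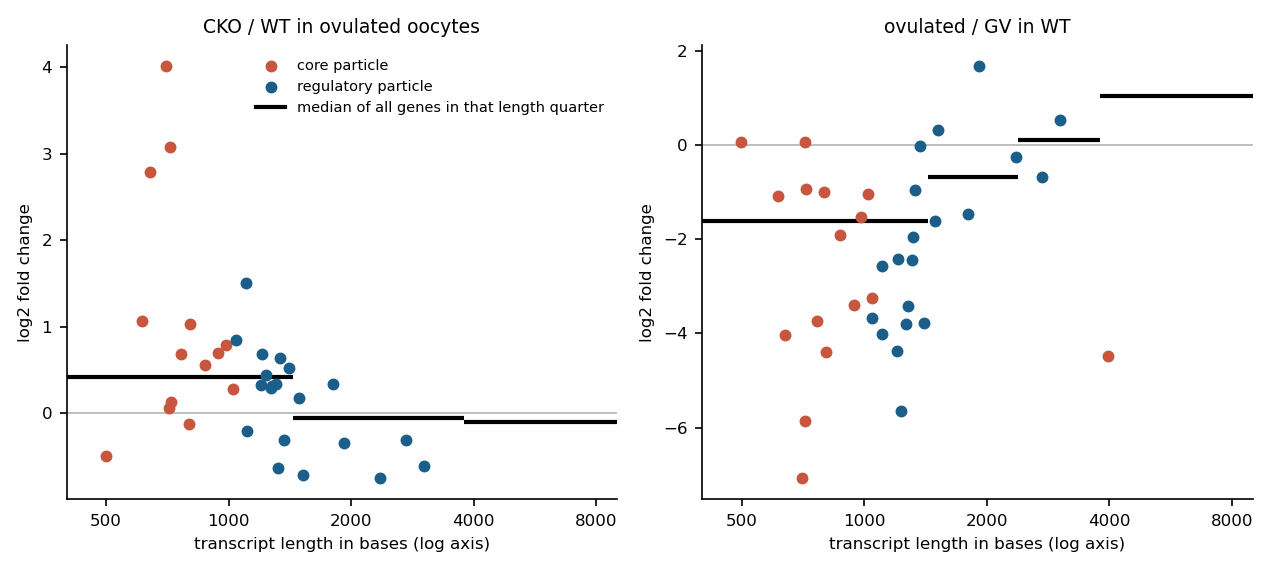
Log2 fold change (y axis) against transcript length in bases (log x axis) for core (red) and regulatory (blue) genes, in ovulated CKO against WT (left) and in ovulated against GV oocytes of WT (right); black bars give the median of all genes between the quartiles of length. Most subunits lie below the first quartile, where the median of all genes was 0.42 on the left and -1.60 on the right.

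The polyadenylation element was found in the last 100 bases of 4 of the 36 subunits (11.1%), Psma1, Psma5, Psmb1 and Psmb3, beside 19.2% of all genes tested. The element was present in 30.05% of all genes that rose from GV to ovulated in WT and in 10.2% of those that fell. Of the 4 subunits that hold it, Psma1, Psma5 and Psmb1 fell and Psmb3 did not pass the test. Most of the 27 decreases thus concern mRNAs without these letters in this window, and a match is no proof of use. The kit makes cDNA from poly(A) tails as is usual for SMART-SeqII, so a shorter tail and fewer mRNA molecules cannot be told apart in these counts.

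Levels were also summed over the particle, per transcript length. The 14 constitutive core genes summed to 4978 ± 799 FPKM in WT GV libraries (SD, n = 4) and to 3055 ± 432 FPKM in WT ovulated libraries (n = 3). The 17 regulatory genes summed to 1788 ± 118 and 703 ± 53.5 FPKM, and the 6 ATPases among them to 840 ± 46.8 and 117 ± 10.3 FPKM.
The core sum per regulatory sum was 2.81 ± 0.64 in WT GV libraries and 4.36 ± 0.64 in WT ovulated libraries, from 2.39 to 3.75 and from 3.70 to 4.99, ranges that overlap. The FPKM tables of the stages were made separately and carry no scaling between libraries, and on the scaled CPM the core sum went from 4460 ± 423 to 2052 ± 378 CPM and the regulatory sum from 2927 ± 757 to 1082 ± 81.2 CPM. Within the core, mRNA amounts drew far apart in WT. The highest level per length at the GV stage, Psma7, was 21.4 times the lowest. In WT ovulated oocytes Psma2, at 1329 FPKM, was 376 times Psmb5, at 3.54 FPKM. In CKO the same ratio went from 17.8 to 55.4. Over the regulatory genes without Psmd13 it went from 30.5 to 46.0 in WT and from 36.4 to 18.9 in CKO.

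**Figure D3:**
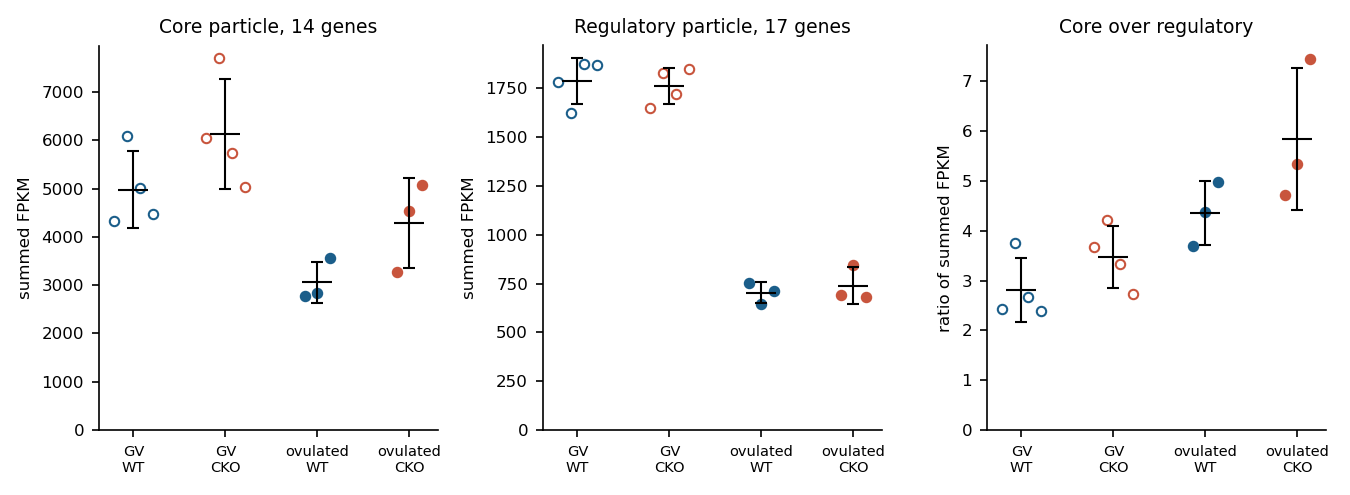
Summed FPKM of the 14 core genes (left) and of the 17 regulatory genes (middle), and their ratio (right), in each library (points), with mean and SD (bars), for the 4 groups on the x axis. Regulatory sums of the 6 ovulated libraries, up to 847 FPKM, all lie below those of the GV libraries, from 1623 FPKM up.

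The effect of Mff loss at the GV stage was compared next. Of the 36 tested subunits, 0 differed between CKO and WT by edgeR at an adjusted p under 0.05, and 0 by DESeq2. Over all genes 0.0163% were called. At an unadjusted p under 0.05, 1 subunit, Psmb5, was found, beside 819 of the 12298 genes tested. The median log2 fold change was -0.03 for the subunits and 0.03 for all genes.
Psmb5 was 31.4, 31.7, 39.2 and 33.5 CPM in WT and 39.4, 46.8, 45.9 and 56.3 CPM in CKO libraries. The ranges just failed to touch, which was so for 4.59% of all genes, and the fold change of 0.46 ± 0.19 (SE) did not pass the adjusted threshold (edgeR adjusted p = 0.707). Core genes had a median of 0.21, with 13 of 16 above 0, and regulatory genes a median of -0.11, with 18 of 20 below 0. Over all genes tested 6503 of 12298 were above 0. The genes share their libraries, so these counts of signs are a description. With a length trend removed, the difference of these medians was 0.17 instead of 0.32. The core minus regulatory median of single libraries, on log2 CPM without this step, had an SD of 0.20 within groups. Core summed levels were 4978 ± 799 FPKM in WT and 6128 ± 1135 FPKM in CKO GV libraries, which overlap, and regulatory sums were 1788 ± 118 and 1761 ± 93.9 FPKM.

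In ovulated oocytes, CKO and WT differed at 5 of the 34 tested subunits, all higher in CKO. These were the catalytic subunits Psmb7 and Psmb5, the structural β subunits Psmb4 and Psmb2, and the lid subunit Psmd6. Over all genes tested 6.44% were higher and 1.4% lower in CKO. The 5 called genes were 4 of 14 core genes and 1 of 20 regulatory genes. The median log2 fold change was 0.33 over the subunits, 0.69 over the core genes and 0.30 over the regulatory genes, and 0.00 over all genes.

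**Figure D4:**
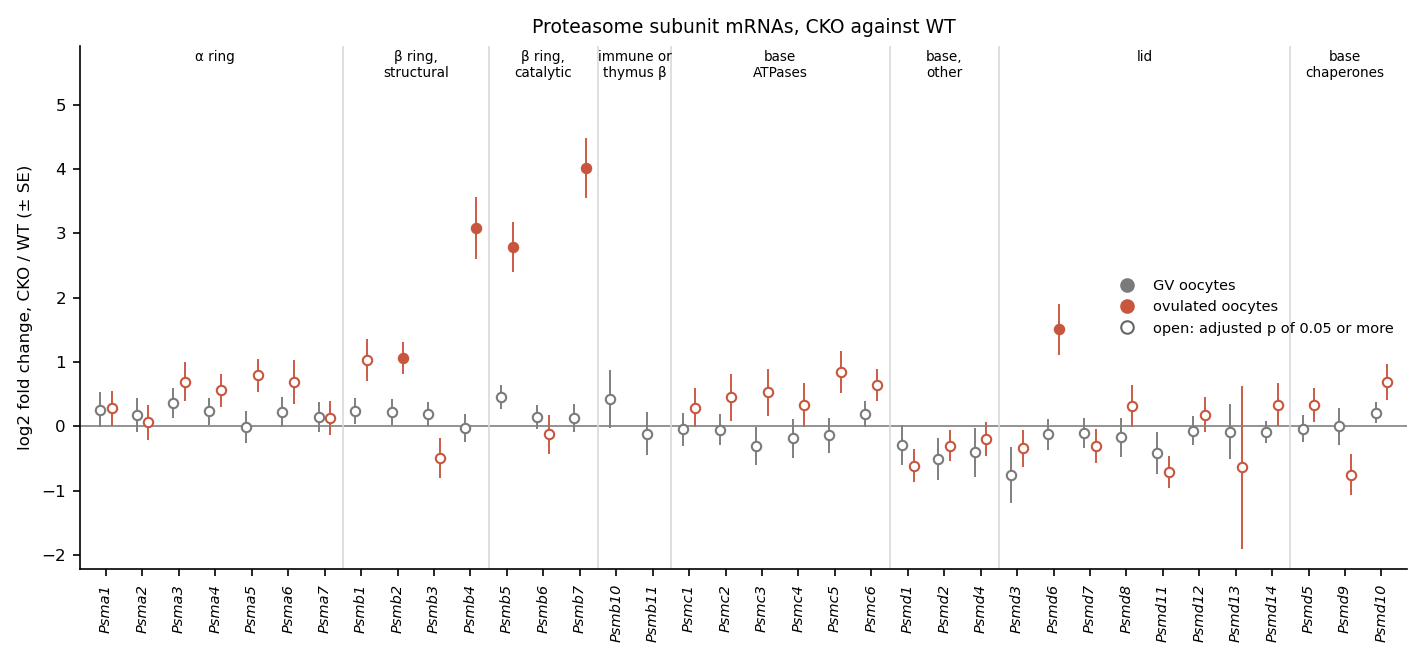
Log2 fold change of CKO against WT (y axis) of each tested subunit gene, grouped by its place in the proteasome, in GV oocytes (grey) and ovulated oocytes (red); bars are standard errors and filled points passed the adjusted p threshold of 0.05. Psmb7, Psmb4, Psmb5, Psmd6 and Psmb2 in ovulated oocytes are the filled points, and GV points lie between -0.76 and 0.46.

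The largest difference was that of Psmb7. Its level was 2.48, 3.00 and 2.24 CPM in the WT libraries and 21.8, 75.6 and 24.5 CPM in the CKO libraries, on 63 to 93 and 760 to 2979 counts. CKO 2 was the highest, and every CKO library was above every WT library. The difference was 16.2-fold (log2 4.01 ± 0.46 SE, edgeR adjusted p = 0.000225).
Psmb5 was 1.96, 1.65 and 2.64 CPM in WT and 12.4, 18.1 and 11.7 CPM in CKO libraries. The CKO libraries were close together and well above WT, a 6.91-fold difference (log2 2.79 ± 0.38, edgeR adjusted p = 0.000687). Psmb6, the remaining catalytic subunit, was 103, 103 and 180 CPM in WT and 96.7, 91.2 and 160 CPM in CKO libraries, which overlap (log2 -0.12 ± 0.30, adjusted p = 0.852). The catalytic subunits thus stood at 3.94 (Psmb7), 3.54 (Psmb5) and 174 FPKM (Psmb6) in WT and at 76.1, 28.8 and 184 FPKM in CKO ovulated oocytes.

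Psmb4, a structural subunit of the β ring, was 2.58, 2.87 and 3.56 CPM in WT and 9.62, 44.9 and 20.1 CPM in CKO libraries. CKO 2 was again the highest, the groups were separate, and the difference was 8.47-fold (log2 3.08 ± 0.48, edgeR adjusted p = 0.00161). Psmb2 was 145, 165 and 142 CPM in WT and 232, 316 and 376 CPM in CKO libraries. The groups did not overlap (log2 1.07 ± 0.25, edgeR adjusted p = 0.0157). Psmd6 was 7.89, 6.62 and 5.52 CPM in WT and 11.5, 31.3 and 13.0 CPM in CKO libraries.
The difference of Psmd6 rested largely on CKO 2 (log2 1.51 ± 0.40, edgeR adjusted p = 0.0303). Without CKO 2 it was 0.91 (adjusted p = 0.202), that of Psmb2 was 1.05 (0.0536), and those of Psmb7, Psmb4 and Psmb5 were 3.21, 2.35 and 2.57, each still past the threshold. Psmb2 was also lost without CKO 3, WT 1 or WT 3, and Psmd6 without WT 1, WT 2 or WT 3. The 100 most abundant genes held 24.99% of the counts of CKO 2 and 29.5% to 35.4% of those of the other ovulated libraries, and the part of this difference in the result was not tested.

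**Figure D5:**
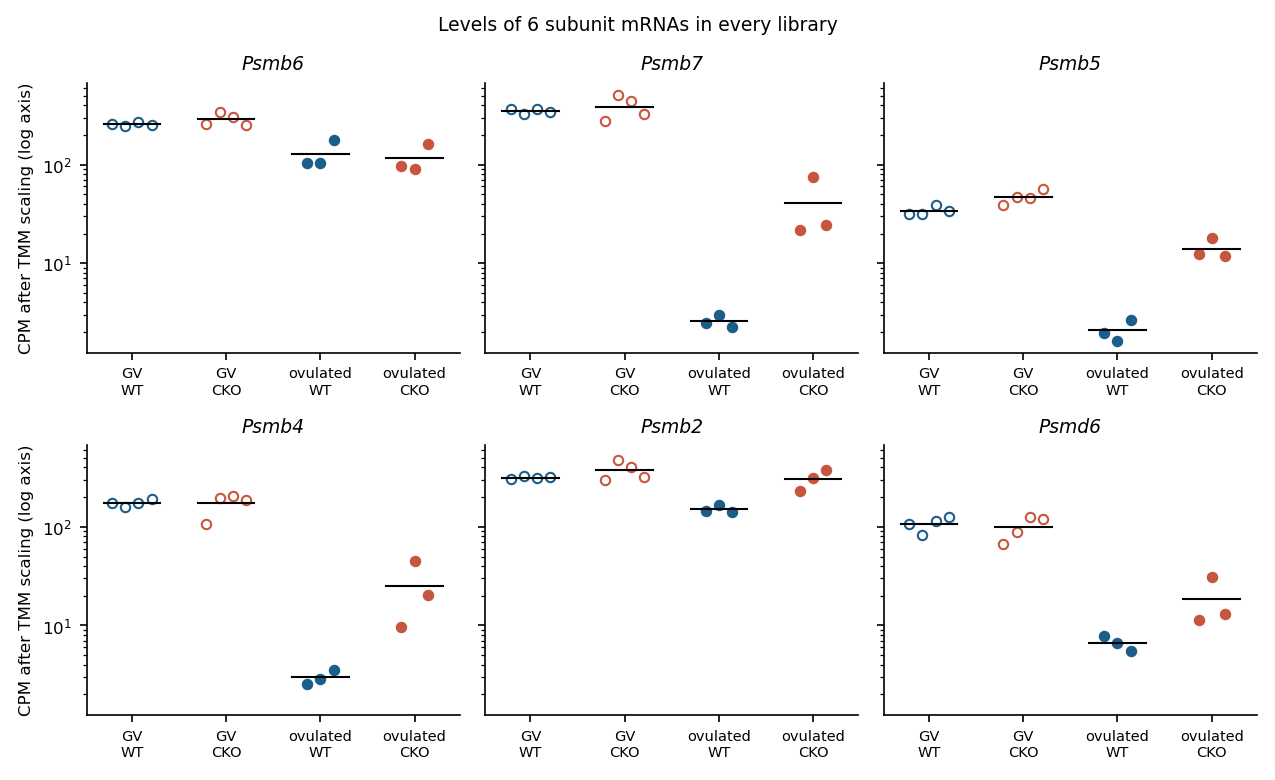
CPM after TMM scaling (log y axis) of 6 subunit mRNAs in each library (points; open for GV, filled for ovulated; blue WT, red CKO), with group means (lines). Psmb7, Psmb5 and Psmb4 fall below 4 CPM in all 3 ovulated WT libraries and stay above 9 CPM in all 3 ovulated CKO libraries, while Psmb6 has overlapping ranges in these groups.

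The other subunits did not pass the test in ovulated oocytes. Among the α ring genes all 7 fold changes were above 0, from 0.06 (Psma2) to 0.79 (Psma5), and none was called. Over all genes tested 5997 of 12010 were above 0. The 6 ATPases ranged from 0.29 (Psmc1) to 0.85 (Psmc5), and none was called. Fold changes below 0 were seen for the base scaffolds Psmd1 (-0.61) and Psmd2 (-0.30), for the lid genes Psmd11 (-0.71), Psmd13 (-0.63), Psmd3 (-0.34) and Psmd7 (-0.31), for the receptor Psmd4 (-0.20), for the chaperone Psmd9 (-0.75) and for Psmb3 (-0.49).
Psmd14 was 11.2, 10.7 and 10.8 CPM in WT and 10.2, 18.6 and 11.4 CPM in CKO libraries, which overlap. CKO and WT libraries did not overlap at 14 of 34 subunits, 12 of them higher in CKO, beside 15.8% of all genes higher and 12.7% lower without overlap. At an unadjusted p under 0.05, 12 subunits were higher and 3 lower, beside 2795 of the 12010 genes tested in either direction. Summed core levels were 3055 ± 432 FPKM in WT and 4290 ± 927 FPKM in CKO ovulated libraries, and regulatory sums were 703 ± 53.5 and 740 ± 93.4 FPKM, both overlapping. On the scaled CPM the core sums were 2052 ± 378 in WT and 2458 ± 541 CPM in CKO libraries, which overlap. The regulatory sums on that scale lay the other way round, at 1082 ± 81.2 in WT and 905 ± 40.6 CPM in CKO libraries, without overlap, so the direction of the regulatory sum depends on the scale.

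Length moved with this comparison too. Of all genes shorter than 1437 bases, 17.6% were higher in ovulated CKO oocytes. All 5 called subunits were among the 27 tested subunits this short, a share close to that of all short genes. Median length was 782 bases in the core genes, 1327 bases in the regulatory genes and 2390 bases over all genes. With a length trend removed, Psmb7 (3.25), Psmb5 (2.11) and Psmb4 (2.34) remained past the threshold, Psmb2 (0.30) and Psmd6 (1.16) did not, and Psmb3 (-1.25) was then called lower. The difference between the medians of the core and the regulatory genes was 0.39 and fell to 0.05 with this step.

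Whether the effect of Mff loss differed between stages was tested by the interaction of genotype and stage, which shares its libraries with the comparisons above. It was called for 3 of 36 subunits, Psmb7 (log2 3.83 ± 0.52, edgeR adjusted p = 0.000990), Psmb5 (2.29 ± 0.36, adjusted p = 0.00243) and Psmb4 (3.06 ± 0.53, adjusted p = 0.00466). Over all genes 3.17% were called higher and 0.0833% lower. All 3 were among the 28 tested subunits shorter than 1437 bases, and of all genes this short 8.89% were called higher. Each of these 3 genes remained called under all 22 alternatives run for the interaction, which did not include fits on FPKM. Without the ovulated library CKO 2 the interaction was 3.02 for Psmb7, 2.32 for Psmb4 and 2.07 for Psmb5. Psmd6 was at 1.58 ± 0.46 (adjusted p = 0.0705) and Psmb2 at 0.79 ± 0.33 (adjusted p = 0.247). Psmb6 gave -0.32 ± 0.37 (adjusted p = 0.711).

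Other genes of the ubiquitin and proteasome pathway were read from a list of 38. At the GV stage 0 of 38 were called by edgeR. At an unadjusted p under 0.05 there was 1, the activator gene Psme2, beside 819 of the 12298 genes tested. Of 37 tested in ovulated oocytes, 12 were higher in CKO and 2 lower at an unadjusted p under 0.05, beside 2795 of the 12010 genes tested in either direction. After adjustment 8 were higher and 0 lower, beside 6.44% and 1.4% of all genes. The median log2 fold change of the 37 was 0.17. Among the genes higher in CKO were Pomp, the chaperone that matures the core particle (log2 1.42 ± 0.30, edgeR adjusted p = 0.00862), Nploc4, a cofactor of the p97 unfoldase (2.17 ± 0.44, adjusted p = 0.00672), Rad23b, a shuttle for ubiquitinated proteins (1.69 ± 0.35, adjusted p = 0.00814), the shuttle Ubqln4, the proteasome inhibitor Psmf1, and the ubiquitin genes Ubb and Rps27a. Pomp was 32.3, 37.3 and 46.0 CPM in WT and 62.8, 107 and 133 CPM in CKO libraries, with no overlap. The interaction was called for 0 of 37 by edgeR. Before adjustment 9 were past 0.05 upward and 1 downward, beside 2052 of the 13199 genes tested in either direction.

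Between stages in WT, 15 of these 37 genes fell and 11 rose, with a median of -0.34. Of all genes 36.2% fell and 30.3% rose, so the list moved about as often as genes in general. Ubiquitin genes that fell included Ubb, from 9680 ± 2264 to 709 ± 82.0 CPM (log2 -3.77 ± 0.34), and Rps27a, from 224 ± 56.3 to 3.17 ± 1.16 CPM (-6.15 ± 0.54). Psmf1 fell as well (-4.85 ± 0.36). Genes that rose included the ubiquitin ligases Ube3c (2.41 ± 0.32) and Ube3a (2.25 ± 0.34) and the shuttle Ubqln1 (2.16 ± 0.29), and the alternative proteasome activators Psme3 and Psme4. Psme4 went from 66.4 ± 45.4 to 495 ± 118 CPM. In CKO, 11 fell and 10 rose, beside 31.2% and 23.2% of all genes.

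Nfe2l1, the transcription factor that raises proteasome genes when the proteasome is inhibited in mammalian cells, rose in both genotypes (WT 1.85 ± 0.33, CKO 1.82 ± 0.33, edgeR adjusted p = 9.31e-05 and 0.000200). It binds antioxidant response elements, searched here as TGACNNNGC on both strands of RefSeq promoters (GRCm38.p6) from 250 bases before to 50 bases after the start. The motif was found in 5 of the 32 subunit promoters in the table (15.6%), beside 16.6% of the promoters of genes tested between stages and 14.0% of all promoters. Promoters of the catalytic subunits Psmb5 and Psmb6, shown because their mRNAs differed in response, both held it, in capitals here.
Psmb5 (chr14:54618023-54618052, minus strand): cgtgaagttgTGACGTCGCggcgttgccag
Psmb6 (chr11:70525338-70525367, plus strand): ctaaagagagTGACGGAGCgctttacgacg

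Psmc3ip, the recombination factor counted apart, was 30.1, 27.6, 31.6 and 31.6 CPM in WT GV libraries and 1.06, 0.419 and 0.855 CPM in WT ovulated libraries. In CKO ovulated libraries it was 1.66, 12.5 and 3.18 CPM, all above WT, with CKO 2 far above the others. It was called in ovulated oocytes (log2 2.92 ± 0.68, edgeR adjusted p = 0.0163) and for the interaction (2.61 ± 0.68, adjusted p = 0.0440).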

How the data were processed

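Per the labels, lysed oocytes were reverse transcribed with SMART-SeqII and the cDNA was amplified by PCR. Per the file headers, the authors deposited read counts and FPKM per gene for each stage. Since 17.6% of GV and 18.3% of ovulated values above 0 lay more than 0.001 from a whole number, the deposited values are taken as estimated counts, an unnormalised read count per gene per the file headers. The deposited FPKM are scaled to transcript length and library size, per the file headers. The submitters' processing notes name the genome build mm10. No aligner or counter is named in the sources used here. There were 0 columns of per-sample values left unused.

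Counts were rounded and fitted with edgeR 4.0.16 in R 4.3.3 (filterByExpr, TMM, robust quasi-likelihood), each stage alone for genotype and all 14 libraries together, on genes of both tables, for stage changes and the interaction. P-values were Benjamini-Hochberg adjusted over all genes, and the threshold was 0.05. CPM were scaled by TMM over all 14 libraries (factors 0.697 to 1.47), except those of the cell type markers, which were taken per library total. Transcript length was taken from the ratio of counts to FPKM where a library had at least 20 counts and 0.5 FPKM. Coordinates of 3′ sites follow GENCODE M21. Scripts were tested on simulated counts. Limma 3.58.1 and DESeq2 1.42.0 served as alternatives.

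Members and lists were chosen with earlier results of these data known. Named genes are the catalytic, inducible, ATPase, Psmd14 and Psma8 genes, all called members where at most 12, otherwise the 6 with the largest change per direction, and up to 3 called pathway genes per direction; Psme3, Psme4, Ubqln4 and Nfe2l1 were named after their values were seen. Replicate numbers were not taken as pairs across genotypes, since the labels do not pair them. The check given with the alternatives cannot exclude pairing.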

Additional observations from a re-analysis of the deposited data

Results flagged for a closer look

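Of 72 groups of 4 GV libraries, 1 subunit and genotype each, 9 held a library far from the other 3. Chance gives about 1 in 20 where groups are independent. These groups share the same libraries and scaling, so the 9 cannot be set against that rate. In GV WT, the lowest library stood apart for the core genes Psma1 (261 CPM), Psma3 (220 CPM), Psma4 (127 CPM) and Psma6 (183 CPM) and for the base scaffold Psmd1 (108 CPM), and it was WT 2 each time. Before this scaling WT 2 was instead the highest of the 4 for the core genes, at 8145 counts and 304 FPKM for Psma1, 6869 and 279 for Psma3, 3954 and 173 for Psma4, and 5696 and 286 for Psma6. For Psmd1 it was the lowest on those scales too, at 3362 counts and 42.0 FPKM. WT 2 had a TMM factor of 1.17, beside 0.697 to 0.814 in the other WT GV libraries, and it was 1 of the 3 GV libraries that stood apart over all genes; the part of this scaling was not tested. For the deubiquitinase Psmd14 the lowest GV WT library, WT 1, was at 51.1 CPM. In GV CKO, library CKO 1 was low for the ATPase Psmc1 (113 CPM) and the chaperone Psmd9 (80.5 CPM), and CKO 4 was high for the lid gene Psmd13 (2.49 CPM).

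The effect of genotype differed between the GV and the ovulated stage, by the interaction test, for Psmb4 (log2 3.06), Psmb5 (2.29), Psmb7 (3.83) and Psmc3ip (2.61). These values share their libraries with the comparisons within each stage and are no further support for them.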

How the results depend on the processing

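The counts of subunits that changed between stages, both directions together, stayed within 1.5 times under all 22 alternatives in each genotype. They were 27 to 29 in WT and 23 to 29 in CKO, and 0 were called at the GV stage under all 19. Such a pooled count does not register a change of direction, which removal of the length trend brought for several genes, as given above. The interaction gave 3 or 4. In ovulated oocytes the 5 calls became 8 with DESeq2, 1 on log2(FPKM + 1) with no filter, 3 without the 2 libraries farthest out (CKO 2 and WT 3, chosen after seeing the data) and 3 to 10 when 1 library was left out, 10 of them without CKO 1. The 1 call on log2(FPKM + 1) with no filter was Psmb5 (limma adjusted p = 0.0463). There Psmb7 (limma adjusted p = 0.067) and Psmb4 (0.0952) did not pass, and of 16488 genes 13 were called higher and 0 lower. In the edgeR fits of ovulated oocytes, the core minus regulatory difference of medians was 0.052 with the length trend removed. It was 0.33 to 0.50 with 1 library left out. Under 2 alternatives it moved by at least the SD of single libraries within groups, and under 15 by less. At the GV stage it was 0.23 to 0.45 with 1 library left out. Between stages, removing the length trend turned the fold change of Psma1 (0.39), Psma7 (0.75), Psmb2 (0.68), Psmb6 (0.59) and Psmc6 (0.28) positive in WT, and those of Psma1 (0.13), Psma5 (0.40) and Psma7 (0.24) in CKO; the cause was not tested. DESeq2's size factor method in edgeR moved the median of all genes in CKO from -0.19 to -0.08 and left the counts of calls at 28 and 27.

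Same-numbered libraries deviated together with correlations of -0.34, 0.24, 0.05 and 0.45 at the GV stage and 0.08, 0.02 and 0.20 after ovulation. So few values cannot exclude pairing, but the labels name none, so the numbers were not taken as pairs. With the replicate number as a block, 8 subunits were called in ovulated oocytes (7 higher, 1 lower), 0 in GV oocytes, 28 in the WT course, 28 in the CKO course and 3 for the interaction. Over all genes the block gave 1068 higher and 562 lower in ovulated oocytes, beside 774 and 168 without it.

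With 3 libraries a group, the spread of the ovulated CKO libraries limits what can be called, and Psmb8, Psmb9, Psma8, Psmb10, Psmb11 and Psmd13 are at the limit of the depth.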
